A study of Homo sapiens with 6 samples.

Results

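The 10 genes described here encode the core machinery of RNA interference and were chosen by symbol: DROSHA, DGCR8, DICER1, AGO1, AGO2, AGO3, AGO4, TNRC6A, TNRC6B and TNRC6C. All 10 were among the 26490 gene symbols of the deposited count table. RNA-seq libraries had been made from total RNA of SW403, an established human colon adenocarcinoma cell line, in 2 groups of 3: control cells with normal IRS2 expression, given the genotype WT, and IRS2 knockdown cells. Both groups had been grown for 24 h in DMEM with 10% fetal bovine serum, and no treatment had been added. IRS2 encodes insulin receptor substrate 2, an adaptor that couples insulin and IGF1 receptors to kinase signalling, and the study is concerned with its part in brain metastasis of colorectal tumours. The sample titles say knockdown, whereas the column headers of that group say IRS2KO, and the method that lowered IRS2 is not given in the sources used here. Any effect of the method itself on these genes cannot be told apart from an effect of low IRS2. Whether replicates of a group derive from 1 line or several is not given either. The titles call them biological replicates (bio_rep), without saying what was repeated. The p-values therefore measure the spread between these samples, which may be no more than that between cultures of 1 line.

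In the microRNA pathway, the nuclear endonuclease DROSHA and its RNA-binding partner DGCR8 cut hairpins out of primary transcripts, and the cytoplasmic endonuclease DICER1 cuts those hairpins into short duplexes. One strand is loaded into an Argonaute protein (AGO1 to AGO4), which finds target mRNAs by pairing with the seed, bases 2 to 8 of the microRNA. The TNRC6 proteins (also called GW182) bind Argonaute and recruit the deadenylases that shorten the poly(A) tail of the target, and several of these mRNAs are themselves known microRNA targets.

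Some complements of microRNA seeds in DICER1 and TNRC6A, the members with the largest differences between the groups, are shown as examples. The microRNAs printed are a selection from 23 read below. Of these 23, the 3′ UTR of DICER1 held seed complements of 11 and that of TNRC6A of 6. The mature microRNAs, credited to the RefSeq microRNA table, are written with the seed in capitals.
miR-103a-3p: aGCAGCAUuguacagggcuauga
miR-30a-5p: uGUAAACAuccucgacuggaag
let-7a-5p: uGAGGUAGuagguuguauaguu
miR-17-5p: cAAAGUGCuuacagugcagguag
In the same table miR-103a-3p shared its seed with miR-107, miR-30a-5p with miR-30c-5p and miR-30e-5p, and miR-17-5p with 7 others, among them miR-20a-5p, miR-93-5p and miR-106b-5p. The let-7a-5p seed was held by 11 mature microRNAs.

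The 3′ UTR of DICER1 (4270 nt, exon 27 of the canonical transcript) contained 5 seven-base complements of the miR-103a-3p seed, ATGCTGC, and 4 of them were followed by A, which makes the 8-base site. They lay on the minus strand of chromosome 14 (GRCh37), and the 8-base site is in capitals at the 3′ end of each stretch.
DICER1 site at chr14:95555794-95555815: atcacacctaaaatATGCTGCA
DICER1 site at chr14:95555193-95555214: tgatgcttcgtggaATGCTGCA
DICER1 site at chr14:95552718-95552739: atatttaccatcacATGCTGCA
DICER1 site at chr14:95552666-95552687: ttcatacagtaatcATGCTGCA
The DICER1 coding region (5769 nt) contained 4 complements of the let-7 seed, CTACCTC, while its 3′ UTR contained 0. One lay in exon 16, 2 in exon 21 and 1 in exon 24, again on the minus strand, with the 7 bases in capitals.
DICER1 coding site at chr14:95574225-95574246: cagcatactgtgttCTACCTCt
DICER1 coding site at chr14:95570085-95570106: acccgtgcaaccaaCTACCTCa
DICER1 coding site at chr14:95569977-95569998: aaatgctaacaaatCTACCTCa
DICER1 coding site at chr14:95560443-95560464: gatgcgattttggaCTACCTCa
The 3′ UTR of TNRC6A (2411 nt, exon 25, plus strand) contained 4 complements of the miR-30a-5p seed, TGTTTAC, of which these 2 were 8-base sites.
TNRC6A site at chr16:24835860-24835881: actttgaaccttctTGTTTACA
TNRC6A site at chr16:24836666-24836687: cagtggcttttaacTGTTTACA
Such matches describe the sequence only: microRNA levels and binding were not analysed here.

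The libraries held 11816973 to 12585013 counts in the control group and 14329348 to 18114656 in the knockdown group, so every knockdown library was deeper. IRS2, the targeted gene, had 32.4, 34.8 and 32.2 CPM (the count of the gene scaled to the total of its library) in the control libraries and 13.0, 12.3 and 11.9 CPM in the knockdown libraries. The groups did not overlap, and IRS2 fell by 1.39 ± 0.07 on the log2 scale (SE), with an adjusted p of 3.12e-11 (edgeR quasi-likelihood test with Benjamini-Hochberg adjustment over all 13832 tested genes, as for every adjusted p below). Of the epithelial markers, KRT8 had a mean of 1106 CPM in control and 1043 CPM in knockdown libraries, and KRT18 1131 and 1071 CPM, and neither passed the test. KRT19 fell from 230.1 to 162.0 CPM (adjusted p = 4.35e-08, edgeR) and EPCAM from 40.2 to 33.9 CPM (adjusted p = 0.00581), and CDX2 rose from 77.7 to 83.7 CPM (adjusted p = 0.0148), whereas KRT20 and CDX1 had no read and CDH1, LGALS4, CDH17 and GPA33 stayed below 1 CPM in every library. VIL1, with 4.34 and 5.42 CPM, did not pass. Levels were also summed over 12 markers of leukocytes, fibroblasts, endothelium, muscle and glia. The sum was 12.9 to 31.5 CPM in control and 9.49 to 11.8 CPM in knockdown libraries, with PTPRC at or near 0 and PECAM1 at 0. COL1A1, COL1A2 and COL3A1 were highest in control replicate 1. Of 4 markers tested, COL1A1 (log2 fold change -1.15, adjusted p = 0.00290, edgeR) and COL3A1 (-1.71, adjusted p = 0.0136) were lower, and CD68 and ACTA2 did not pass. Neither call was kept in every other setting, and the COL3A1 groups overlapped in CPM. The part of these marker differences in the results below was not tested. In bulk RNA, fewer cells of a type and less RNA per cell cannot be told apart.

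All 10 genes passed the expression filter, and 7 passed the threshold of 0.05 for the adjusted p: DICER1, TNRC6A, AGO1, AGO2 and TNRC6C rose, and DGCR8 and DROSHA fell. AGO3, AGO4 and TNRC6B did not pass. Of all tested genes, 38.5% passed, 19.3% as higher and 19.2% as lower, so a call on its own was common in these libraries. Because long transcripts were on balance higher in the knockdown cells, the members were also read against the 4238 tested genes whose canonical transcript was as long as theirs (4506 to 19660 nt), of which 26.5% were higher and 19.2% lower. The median log2 fold change was 0.21 over the members, 0.03 over those 4238 genes and -0.00 over all tested genes. The same 7 members had groups that did not overlap in CPM, as had 48.4% of all tested genes. DICER1 and TNRC6A had large changes for well-expressed genes: among the 6192 tested genes that averaged 500 counts or more, 35 had a larger positive log2 fold change than DICER1.

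**Figure D1:**
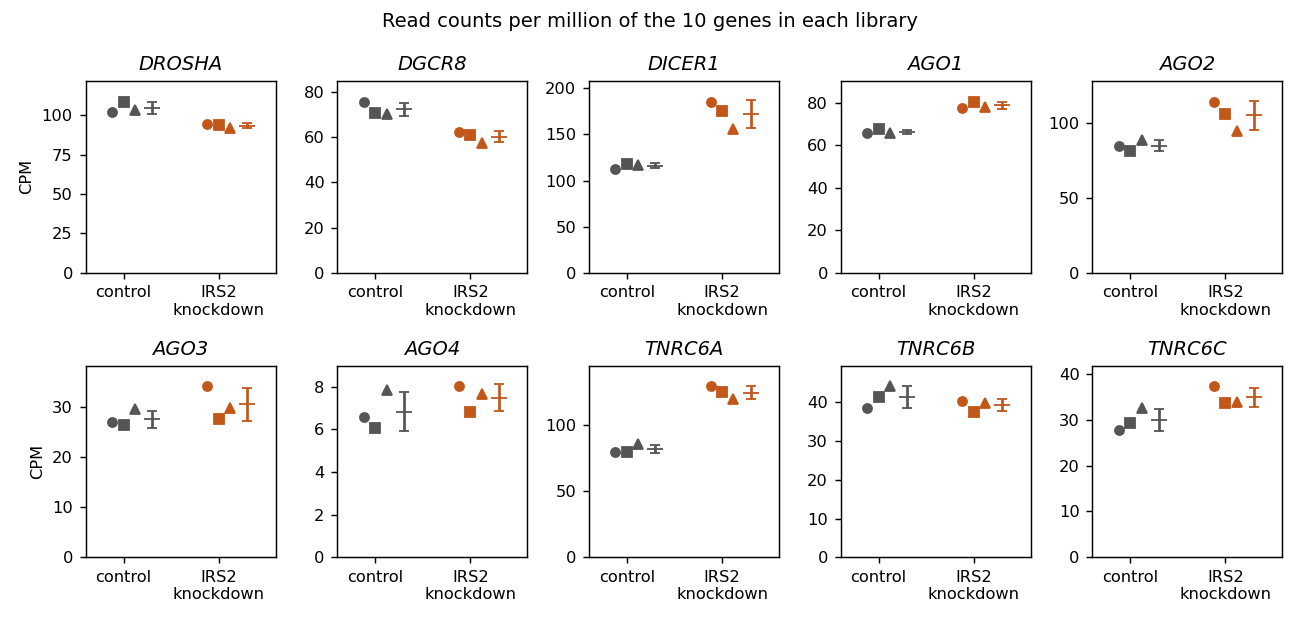
CPM (vertical axis, from 0) of the 10 genes in the control (grey) and IRS2 knockdown (orange) libraries; circles, squares and triangles are replicates 1, 2 and 3, and the bar beside them is the mean with its SD (n = 3). The DICER1 and TNRC6A points of the groups lie far apart, while those of AGO3, AGO4 and TNRC6B overlap.

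The microprocessor was the step at which both genes fell. DROSHA (chromosome 5, 31400601 to 31532303, minus strand, GRCh37 as for all gene positions below) had 101.9, 108.7 and 103.2 CPM in the control and 94.6, 93.8 and 91.7 CPM in the knockdown libraries. The groups did not overlap, and the knockdown libraries lay close together. DROSHA fell by 0.14 ± 0.04 on the log2 scale (adjusted p = 0.0120, edgeR). That call was lost with the DESeq2 Wald test (adjusted p = 0.0825), with a length and GC correction over all genes (log2 fold change -0.07, adjusted p = 0.112, limma) and without control replicate 2, the highest control library (log2 fold change -0.10, adjusted p = 0.111). DGCR8 (chromosome 22, 20067744 to 20099400, plus strand), whose product holds the stem of the primary hairpin, had 75.9, 70.8 and 70.5 CPM against 62.2, 61.0 and 57.5 CPM. Every knockdown library was below every control library, and DGCR8 fell by 0.24 ± 0.05 (adjusted p = 0.000546, edgeR). It kept an adjusted p of at most 0.00499 when any 1 library was left out. The log2 ratio of DROSHA to DGCR8 per kilobase was 0.27 ± 0.10 in control and 0.37 ± 0.04 in knockdown libraries (SD, n = 3; exact two-sided permutation p = 0.2, where 0.1 is the smallest possible).

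DICER1 (chromosome 14, 95552565 to 95624347, minus strand), the enzyme that releases the mature duplex, was the processing gene that rose. Its level was 112.8, 118.1 and 117.3 CPM in the control libraries and 185.7, 175.3 and 155.6 CPM in the knockdown libraries. The lowest knockdown library was well above the highest control library, but the knockdown libraries spread widely, with an SD of 15.3 CPM against 2.90 CPM in control. The fold was 1.51, or 0.60 ± 0.05 on the log2 scale (adjusted p = 2.11e-08, edgeR). Without knockdown replicate 1, the highest library, the log2 fold change was 0.54, and without replicate 3, the lowest, it was 0.66. Knockdown replicate 1 had the highest CPM of its group in 9 of the 10 members, rising and falling ones alike, and the part of that library in the results was not tested beyond leaving it out.

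DICER1 per kilobase moved up to the level of DROSHA. Their log2 ratio was -0.79, -0.82 and -0.76 in the control libraries and 0.03, -0.04 and -0.18 in the knockdown libraries. The groups did not overlap, and the difference of 0.73 had an exact permutation p of 0.1, the smallest that 3 libraries against 3 allow. Since DROSHA fell and DICER1 rose, the ratio joined both changes in 1 value.

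Among the Argonautes, the more abundant pair rose and the less abundant pair did not pass the test. AGO2 (chromosome 8, minus strand), the member with slicer activity on fully paired targets, had 84.4, 81.3 and 88.3 CPM in control and 114.0, 105.7 and 94.6 CPM in knockdown libraries. The groups did not overlap, though knockdown replicate 3 was close to the control range, and AGO2 rose by 0.33 ± 0.05 on the log2 scale (adjusted p = 7.35e-05, edgeR). Leaving out 1 library at a time gave log2 fold changes between 0.28 and 0.40. AGO1 (chromosome 1, 36335409 to 36396133, plus strand), an Argonaute with little slicing activity, had 65.6, 67.5 and 65.8 CPM against 77.8, 80.6 and 78.1 CPM. The groups did not overlap, and it rose by 0.28 ± 0.04 (adjusted p = 3.54e-05, edgeR).

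AGO3 and AGO4 lie on either side of AGO1 on the plus strand of chromosome 1, at 36396319 to 36538101 and 36273617 to 36323491. AGO3 had 26.9, 26.3 and 29.4 CPM in control and 34.1, 27.5 and 29.8 CPM in knockdown libraries, so the groups overlapped and knockdown replicate 1 stood highest. Its log2 fold change was 0.17 ± 0.08 (adjusted p = 0.0817, edgeR), and it was 0.09 without that library. The call of AGO3 turned on 1 library in the other direction as well: it passed without control replicate 3 (0.22, adjusted p = 0.0478) and without knockdown replicate 2 (0.24, adjusted p = 0.0244). AGO4 was the scarcest member, with 76 to 139 reads per library. Its CPM was 6.60, 6.05 and 7.87 in control and 8.03, 6.80 and 7.67 in knockdown libraries, and its log2 fold change of 0.16 ± 0.13 (adjusted p = 0.359, edgeR) was within the counting and replicate error at this depth.

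Per kilobase of canonical transcript, AGO2 made up 44.7% ± 0.608 of the summed Argonaute level in control and 46.2% ± 2.03 in knockdown libraries (SD, n = 3). AGO1 made up 37.3% ± 1.57 and 37.1% ± 2.08, AGO3 10.8% ± 0.322 and 9.98% ± 0.826, and AGO4 7.23% ± 0.756 and 6.66% ± 0.56. Exact permutation p-values for the 4 shares were 0.4, 0.9, 0.2 and 0.5, in a design that cannot go below 0.1, and the groups overlapped for each share. An AGO1 share above or below its control value depended on single libraries.

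The TNRC6 scaffolds differed among themselves. TNRC6A (chromosome 16, 24621530 to 24838953, plus strand) had 80.2, 80.1 and 85.6 CPM in the control libraries and 129.7, 125.2 and 119.7 CPM in the knockdown libraries. All knockdown libraries were far above all control libraries, and the fold of 1.55, or 0.64 ± 0.04 on the log2 scale, was the largest of the 10 members (adjusted p = 9.71e-10, edgeR). Leaving out any 1 library kept it between 0.61 and 0.67. TNRC6C (chromosome 17, 75954785 to 76104903, plus strand) had 27.8, 29.3 and 32.5 CPM against 37.3, 33.6 and 33.8 CPM. The groups nearly touched, and TNRC6C rose by 0.25 ± 0.07 (adjusted p = 0.00500, edgeR). TNRC6B (chromosome 22, 40440821 to 40731812, plus strand) had 38.6, 41.3 and 44.1 CPM against 40.3, 37.4 and 39.9 CPM. Its groups overlapped, and its log2 fold change was -0.05 ± 0.06 (adjusted p = 0.577, edgeR), with a sign that turned without control replicate 3 (0.0033).

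**Figure D2:**
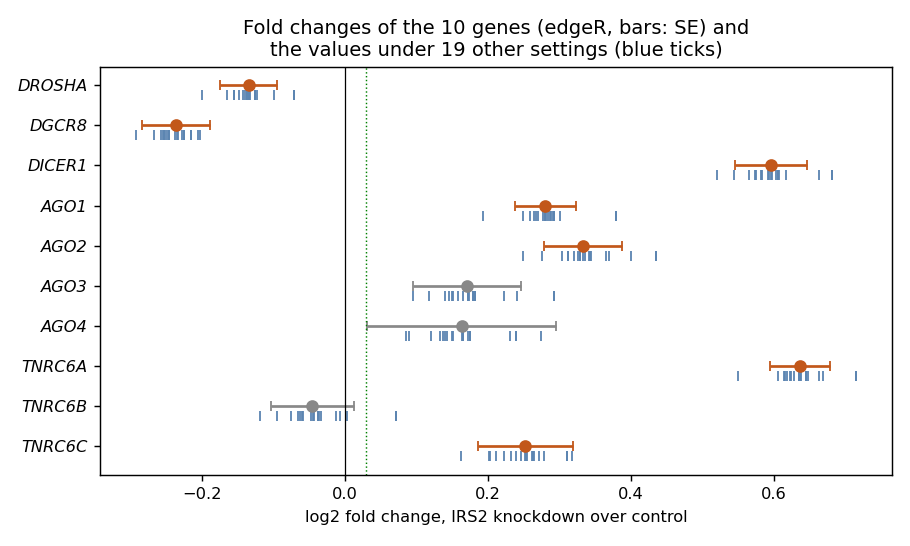
Log2 fold change of IRS2 knockdown over control (horizontal axis) for the 10 genes, with the SE as bars; orange marks an edgeR adjusted p under 0.05 and grey the rest. Blue ticks are the values under 19 other settings, and the dotted green line is the median of tested genes of like transcript length (0.03): DICER1 and TNRC6A lie to the right of all other members under every setting drawn.

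TNRC6A therefore took a larger part of its family. Its share of the summed TNRC6 level per kilobase was 66.3%, 65.0% and 64.5% in control and 72.5%, 73.6% and 72.2% in knockdown libraries. The share of TNRC6B was 15.3% ± 0.39 and 10.6% ± 0.486, and that of TNRC6C 19.4% ± 0.61 and 16.6% ± 0.433 (SD, n = 3). For each of the 3 genes the groups did not overlap, and the exact permutation p was 0.1, the smallest possible here. The TNRC6A share differed by 7.47 percentage points, and by at least 7.05 when 1 library was left out.

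Levels could be ordered between genes per kilobase of 1 canonical transcript, which takes no account of shorter or longer 3′ UTR forms. In control libraries the order was DROSHA (19.3 ± 0.658 CPM per kb), DGCR8 (16.1 ± 0.674), DICER1 (11.2 ± 0.279), TNRC6A (9.65 ± 0.369), AGO2 (5.80 ± 0.243), AGO1 (4.84 ± 0.075), TNRC6C (2.87 ± 0.23), TNRC6B (2.26 ± 0.15), AGO3 (1.40 ± 0.086) and AGO4 (0.94 ± 0.128; SD, n = 3). No neighbours in that order overlapped between their libraries. In knockdown libraries DROSHA (17.2 ± 0.267), DICER1 (16.6 ± 1.47), TNRC6A (14.7 ± 0.589) and DGCR8 (13.4 ± 0.544) led, and the order of the other 6 did not change. The libraries of DICER1 overlapped with those of DROSHA and of TNRC6A. DGCR8 thus moved from the second place to the fourth. The summed level of the 10 genes was 621 to 645 CPM in control and 708 to 784 CPM in knockdown libraries.

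**Figure D3:**
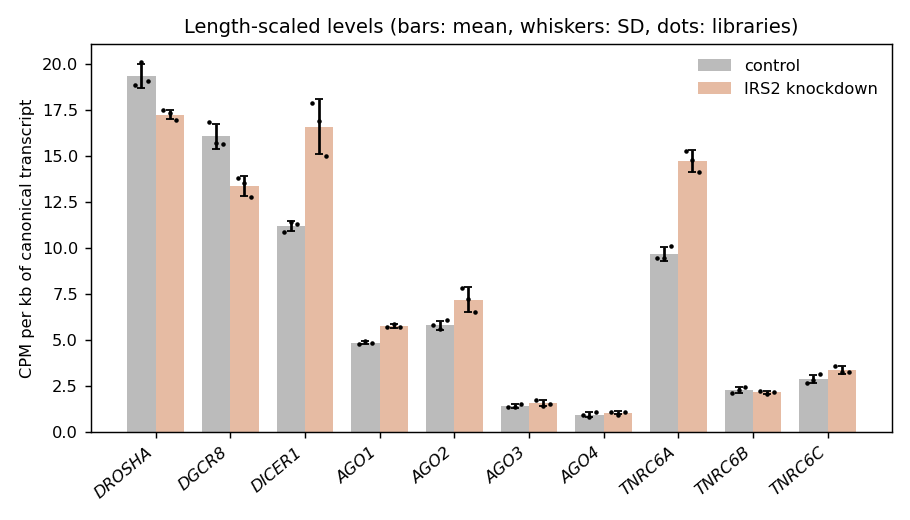
CPM per kilobase of canonical transcript (vertical axis, from 0) of each gene in control (grey) and IRS2 knockdown (orange) libraries; bars are means, whiskers SD and dots the 3 libraries. DICER1 and TNRC6A reach or pass the DGCR8 bar only in the knockdown group.

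Long transcripts, which most members have, were shifted as a class. Across 8839 tested genes of known length that averaged 200 counts or more, log2 fold change and transcript length had a rank correlation of 0.24, a description across genes that share libraries. A fit corrected for length and GC content with the trend taken from those genes brought it to 0.00056. Such a small value was built into that fit, since the same genes set its trend, so it is no check of the correction. In that fit DICER1 was at 0.52 (adjusted p = 2.49e-11, limma), TNRC6A at 0.55, AGO2 at 0.25, AGO1 at 0.19 and TNRC6C at 0.16, and DGCR8 and DROSHA were at -0.29 and -0.20. The 7 members that passed without the correction passed with it, in the same directions. With the correction over all genes, which left the rank correlation at 0.25, DROSHA did not pass (adjusted p = 0.112, limma).

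The genes nearest to the members were read as well, whatever their distance. AGO3 starts 186 bp after the end of AGO1, and DROSHA shares a start region with the divergent gene C5orf22, which begins 91 bp away. C5orf22 had a log2 fold change of 0.08 ± 0.07 (adjusted p = 0.375, edgeR), not past the threshold where DROSHA fell. Of the 2 nearest protein-coding genes on each side of each member, members left out, 22 were tested. They lay as far away as SEC14L1, at 741602 bp from TNRC6C. Of the 22, 12 were higher, 2 were lower and the median log2 fold change was 0.12. Over all tested genes, 19.3% were higher and 19.2% lower. Over those with transcripts as long as the members, 26.5% were higher and 19.2% lower. The neighbours were not matched to either set for length or level. The lower genes were CLMN beside DICER1 (2.52 to 1.15 CPM, log2 fold change -1.09) and RANBP1 near DGCR8 (-0.10). TMC6, which overlaps the end of TNRC6C, rose by 0.34 (adjusted p = 0.000117). Its neighbour TMC8 rose by 0.53 (adjusted p = 0.00283). C1orf216, near AGO4, rose by 0.40 (adjusted p = 9.20e-06, edgeR). DICER1-AS1, a noncoding gene on the opposite strand that overlaps the start of DICER1, fell from 2.69 ± 0.593 to 1.48 ± 0.328 CPM (SD, n = 3; log2 fold change -0.85 ± 0.25, adjusted p = 0.0106, edgeR). It fell where DICER1 rose. Whether counting used strand is not given in the sources used here, so reads of overlapping genes cannot be told apart where they share bases.

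The 250 bases before the listed starts of TNRC6A and DICER1 are shown because these mRNAs differed most between the groups. They come from the RefSeq promoter table (GRCh38.p14), in which 9 of the 10 members matched. For DICER1 this is the first of 5 listed starts, and which start SW403 cells use was not analysed here. Capitals mark a GC box (GGGCGG or its reverse complement CCGCCC) and a CCAAT box (CCAAT or ATTGG).
TNRC6A, chr16:24729401-24729650, plus strand: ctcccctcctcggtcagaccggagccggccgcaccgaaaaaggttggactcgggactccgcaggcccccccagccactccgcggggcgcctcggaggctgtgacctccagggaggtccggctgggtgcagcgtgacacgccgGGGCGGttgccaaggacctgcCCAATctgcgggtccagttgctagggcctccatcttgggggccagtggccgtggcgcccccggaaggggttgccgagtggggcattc
DICER1, chr14:95157530-95157779, minus strand: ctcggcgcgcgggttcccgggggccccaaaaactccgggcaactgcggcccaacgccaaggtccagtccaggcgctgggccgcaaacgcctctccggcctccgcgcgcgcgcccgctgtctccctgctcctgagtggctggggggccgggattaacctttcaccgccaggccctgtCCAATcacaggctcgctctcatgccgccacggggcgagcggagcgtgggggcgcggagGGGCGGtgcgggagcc
Each window held 1 of each motif. Both motifs are common: over windows of 300 bases, 45.0% of the 35116 listed promoters held the GC box and 34.6% the CCAAT box on either strand. DROSHA and DGCR8, which fell, also held both. The cAMP response element TGACGTCA (1.85% of promoters) and the forkhead word TGTTTAC (3.42%) were in no listed window of the 9 matched members, and the E-box CACGTG (7.26%) was in 1 window, of TNRC6C.

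Beyond the core, 7 lists of genes that work with it were read: 128 genes, of which 108 were tested, 19 were higher and 23 lower. Those shares, 17.6% and 21.3%, were near the background of 19.3% and 19.2%. Most differences in these lists were smaller than those of DICER1 and TNRC6A.

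Of 21 microprocessor partners, 2 rose, 5 fell and 14 did not pass, with a median log2 fold change of -0.03. XRN2, the nuclear exonuclease, rose by 0.16 ± 0.03 and SRRT (ARS2), which brings primary transcripts from the cap-binding complex, by 0.10 ± 0.03. METTL14, a subunit of the m6A writer, had the lowest value, from 22.4 ± 1.14 to 16.5 ± 1.36 CPM (log2 fold change -0.41 ± 0.08, adjusted p = 0.000486, edgeR). The helicase DDX17 fell by 0.12, the RNA-binding protein HNRNPA1 by 0.10, and ERH, a small partner of DGCR8, by 0.13. ERH lost its call with both length corrections (-0.05, adjusted p = 0.10, and -0.03, adjusted p = 0.397, limma) and without knockdown replicate 1 (adjusted p = 0.0515) or 2 (adjusted p = 0.0773). DDX17 and HNRNPA1 lost theirs with the correction over all genes (adjusted p = 0.0597 and 0.0651, limma), DDX17 also without control replicate 3 (0.0635) and HNRNPA1 without knockdown replicate 2 (0.0567). SRRT lost its call by library size alone (adjusted p = 0.0565) and without control replicate 2 (0.0764).

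Of 10 tested genes of export, dicing and precursor turnover, 2 rose and 2 fell, with a median of 0.10. LIN28B, the RNA-binding protein that blocks maturation of let-7 precursors, had the largest change in any of the lists. It had 14.1, 14.2 and 15.2 CPM in control and 5.51, 5.10 and 4.64 CPM in knockdown libraries, and fell by 1.49 ± 0.11 on the log2 scale (adjusted p = 3.61e-09, edgeR). The groups were far apart. Its paralog LIN28A had at most 1 read in any library and was not tested. XPO5, which carries hairpins out of the nucleus, rose by 0.19 ± 0.04 (adjusted p = 0.000401), and its cofactor RAN fell by 0.11 ± 0.03 (adjusted p = 0.00941). The RAN call was lost with the correction over all genes (adjusted p = 0.102, limma) and without knockdown replicate 1 (0.0657) or 2 (0.0599). ZC3H12A, an endonuclease that destroys precursors, rose by 0.30 ± 0.11 (adjusted p = 0.0427), a call lost in 11 of 19 other settings.

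Of 22 genes of RISC loading and Argonaute partners, 6 rose, 3 fell and 13 did not pass, with a median of -0.01. TRIM71 (LIN41), a known let-7 target that binds Argonaute, had 8.90, 10.7 and 13.0 CPM in control and 18.9, 20.7 and 17.7 CPM in knockdown libraries. The groups did not overlap, and it rose by 0.85 ± 0.11 (adjusted p = 3.83e-06, edgeR), opposite to LIN28B. The helicase MOV10 rose by 0.34 ± 0.05, the co-chaperone FKBP5 by 0.27 ± 0.05 and the chaperone HSPA8 by 0.15 ± 0.02. FXR1 fell by 0.21 ± 0.04, and the HSP90 co-chaperones AHSA1 and PTGES3 by 0.19 ± 0.03 and 0.16 ± 0.03.

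Downstream of TNRC6, the deadenylases moved little and the decapping factors moved both ways. Of 17 deadenylation genes, 2 rose (CNOT6 by 0.17 ± 0.04 and CNOT6L by 0.13 ± 0.05, both catalytic subunits), CNOT2 fell by 0.18 ± 0.06 and 14 did not pass. CNOT6 kept its call in all 19 other settings. CNOT6L lost its call in 12 of them, among them each but 1 of the fits without a library, the replicate block (adjusted p = 0.0651) and the added length correction (0.08, adjusted p = 0.195, limma). CNOT2 lost its call in 5, among them DESeq2 (adjusted p = 0.144), the correction over all genes (0.0579, limma) and the fits without control replicate 2 (0.0737) or knockdown replicate 1 (0.0600). Of 21 genes of decapping, repression and decay, 5 rose, 8 fell and 8 did not pass. The decapping enzyme DCP2 rose from 73.3 ± 4.69 to 95.5 ± 3.50 CPM (0.41 ± 0.05, adjusted p = 1.65e-06, edgeR), as did PATL1 (0.23), GIGYF1 (0.20) and EIF4E2 (0.18). LSM14B, a granule protein that represses translation, fell from 64.0 ± 1.81 to 40.6 ± 2.09 CPM (-0.63 ± 0.05, adjusted p = 1.32e-08, edgeR), and EDC3, an enhancer of decapping, fell by 0.29. Of the 7 subunits of the LSM1 to LSM7 ring, which binds shortened tails and activates decapping, 6 fell, a group picked out after its values were seen. LSM4 fell by 0.36 ± 0.04 and LSM3 by 0.26 ± 0.05. Several of these transcripts are short, and with the length correction whose trend came from genes averaging 200 counts 5 of the 7 were lower: LSM4 was at -0.34, LSM3 at -0.29, LSM6 at -0.28, LSM1 at -0.21 and LSM7 at -0.16. LSM2 (-0.16, adjusted p = 0.0445, edgeR) lost its call in that fit (-0.10, adjusted p = 0.147, limma) and with the replicate block (adjusted p = 0.0691).

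Of 10 genes of the germline piRNA pathway, whose PIWI proteins are relatives of the Argonautes, PIWIL1 and PIWIL4 passed the expression filter and were tested. PIWIL1 had 2.41 ± 0.302 and 2.62 ± 0.491 CPM, and PIWIL4 7.69 ± 1.01 and 8.36 ± 0.473 CPM (SD, n = 3). With edgeR 0 passed (0 at an unadjusted p under 0.05, and 0 with DESeq2), and per kilobase PIWIL4 (2.45 ± 0.322 and 2.66 ± 0.151 CPM per kb) was above AGO4 and AGO3 in both groups. TDRD9 and ASZ1 had no read.

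Host genes of microRNAs, whose introns or exons hold hairpins, were read as mRNA or noncoding transcripts, not as microRNA levels. Of 26 listed, 15 were tested, 2 rose and 4 fell, with a median of 0.02. MEST, the host of miR-335, rose by 0.40 ± 0.04 (adjusted p = 2.58e-07, edgeR), and MIR22HG, the host of miR-22, by 0.48 ± 0.09. SREBF2, the host of miR-33a, fell by 0.25 ± 0.04, DLEU2, the host of miR-15a and miR-16-1, by 0.38 ± 0.10, and CTDSP2, the host of a miR-26a copy, by 0.16 ± 0.04. MIR17HG, the host of the miR-17 to miR-92a cluster, had 9.77, 7.09 and 9.22 CPM in control and 7.40, 6.39 and 5.52 CPM in knockdown libraries. The groups overlapped, and its fall of 0.41 ± 0.14 (adjusted p = 0.0274, edgeR) was lost without control replicate 1 (adjusted p = 0.144) and in other settings.

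**Figure D4:**
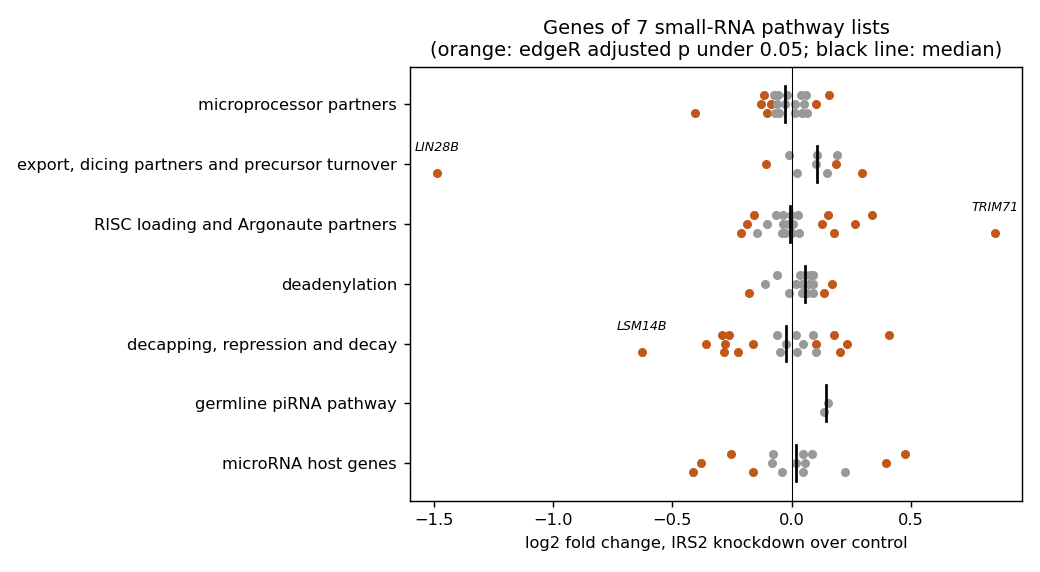
Log2 fold change of IRS2 knockdown over control (horizontal axis) for the tested genes of 7 lists; each point is a gene, orange where the edgeR adjusted p was under 0.05, and the black line is the list median. LIN28B, LSM14B and TRIM71 stand apart from lists whose medians lie near 0.

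Seed complements were counted in the 3′ UTRs of the members for 23 microRNAs. AGO3, with the longest UTR (16755 nt), held 40 seven-base words and TNRC6B (12567 nt) 43, but per kilobase DICER1 (4.68) and TNRC6A (4.56) held the most. DROSHA (938 nt) and DGCR8 (1764 nt), which fell, held 1 and 2 words in all and no 8-base site. TNRC6B, with 3.42 words per kilobase, did not pass the test. Words of miR-103a-3p occurred in 6 members, with 5 each in DICER1 and AGO2, and in 14.8% of the 12453 annotated 3′ UTRs of at least 50 nt. Words of miR-17-5p (GCACTTT) occurred in 7 members, 8 of them in AGO3, and in 25.2% of all 3′ UTRs. The 8-base site of miR-17-5p was in TNRC6B alone among the members. Word counts grow with UTR length, so they were not read as differences in regulation. Nor were the values per kilobase, which were not set against all 3′ UTRs. Words of miR-103a-3p (ATGCTGC) and miR-15a-5p (TGCTGCT) can also share bases, which are then counted in both.

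Across the transcriptome, the groups of genes with an 8-base site in the 3′ UTR were compared with the genes without it, as a description with no test, among 8636 genes that averaged 200 counts or more. Of these genes 25.9% were higher and 16.9% lower. For miR-17-5p, 514 genes had the site, 40.7% of them higher and 8.17% lower. Their median log2 fold change was 0.10 against 0.01 without it, a difference of 0.09 ± 0.02 (SD over the 3 knockdown libraries). For this SD each knockdown library was set against the mean of the control libraries, so the spread among controls is left out. The differences were 0.07 ± 0.03 for miR-18a-5p, 0.07 ± 0.03 for miR-25-3p and 0.06 ± 0.02 for miR-15a-5p. DICER1 held 2 words of miR-18a-5p, 1 of them an 8-base site, and 2 of miR-15a-5p, and TNRC6A held 1 word of miR-17-5p. Members that did not pass the test held such words as well. TNRC6B held 2 of miR-18a-5p, 5 of miR-15a-5p and 3 of miR-17-5p, and AGO3 held 8 of miR-17-5p. For the microRNAs whose sites are printed above, the differences were 0.02 ± 0.01 for miR-103a-3p and 0.03 ± 0.02 for miR-30a-5p. The let-7a-5p difference was 0.0011.

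Genes with a site had longer UTRs in all 23 groups, with medians of 2771 to 3976 nt against 1278 to 1380 nt without. Without correction 22 of the 23 differences were above 0, within UTRs of 2000 to 5000 nt 17 were, and after the length correction 11 were. The miR-17-5p difference was then 0.057, that of miR-18a-5p 0.038, that of miR-25-3p 0.036 and that of miR-15a-5p 0.024. Within UTRs of 2000 to 5000 nt the miR-17-5p difference was 0.065. In these settings the miR-103a-3p difference was -0.0085 and -0.0068, and that of miR-30a-5p 0.013 and 0.010. The let-7a-5p difference was -0.029 and -0.036, below 0 in both.

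**Figure D5:**
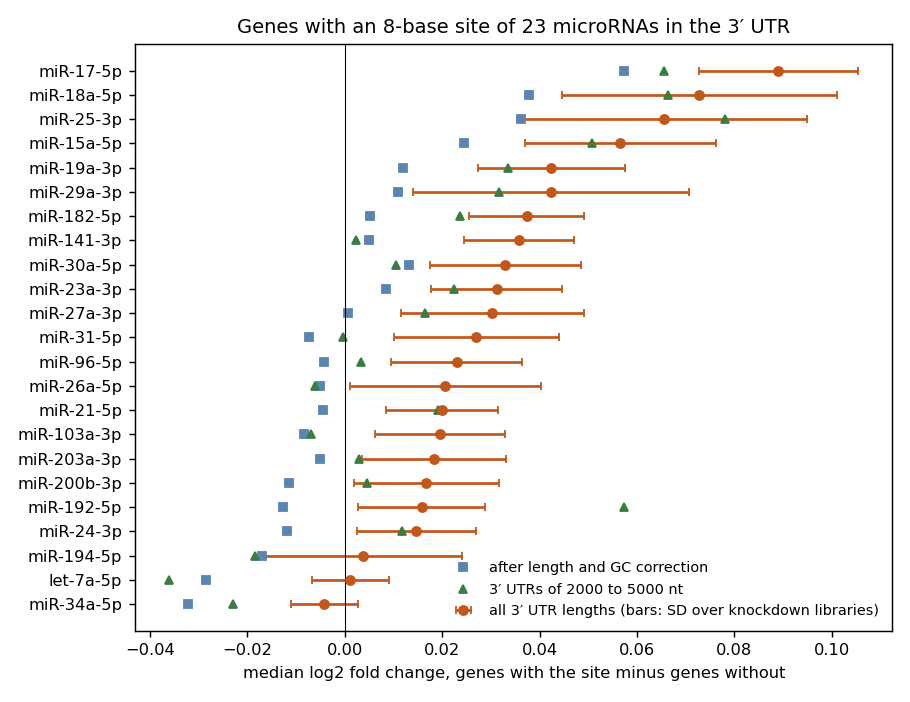
Median log2 fold change of genes with an 8-base site in the 3′ UTR minus that of genes without (horizontal axis) for 23 microRNAs; orange circles are all UTR lengths with the SD over the 3 knockdown libraries, blue squares the values after length and GC correction, and green triangles UTRs of 2000 to 5000 nt. The sites of miR-17-5p, miR-18a-5p, miR-25-3p and miR-15a-5p stay above 0 by more than 0.02 in all 3 settings.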

How the data were processed

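Total RNA of 3 control and 3 IRS2 knockdown cultures of SW403 cells was made into PCR-amplified Illumina libraries from 1000 ng of RNA, per the labels' protocols. The authors deposited whole-number read counts per gene symbol, and a second table whose normalized signal is, as a check of its values showed, the counts of each library divided by 1 constant, for genes with at least 10 counts in all. The submitters' processing notes name STAR 2.6.1a, Salmon, DESeq2 and hg19, without roles; strand setting and annotation are not given in the sources used here. Each column was matched to a sample by its description, with 0 columns unused. The titles of both groups number the libraries as biological replicates (bio_rep).

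Counts were tested with edgeR 4.0.16 in R 4.3.3 (TMM factors, filterByExpr, quasi-likelihood F-test, group only), with Benjamini-Hochberg adjustment over 13832 genes and a threshold of 0.05; the SE of a log2 fold change was derived from it and F. CPM values use the library total, fold changes the TMM-scaled total. Positions, lengths and UTRs came from Ensembl-canonical transcripts of GENCODE version 44 lifted to GRCh37, which may differ from the annotation used for counting. The script was tested on simulated counts with known changes. Counts of 11816973 to 18114656 per library gave a common biological coefficient of variation of 3.00%. Exact two-sided permutation tests of 3 against 3 cannot go below 0.1. The 10 members, the 7 lists, the microRNAs and the rule for named genes (all members, IRS2, and in each list up to 4 higher and 4 lower genes with the smallest p) were chosen with earlier results of these data known. Alternatives were other normalizations (DESeq2 size factors, upper quartile, library size), other low-count filters (none, or an average of 50 counts), DESeq2 1.42.0, limma 3.58.1 (voom, or log2 of the deposited signal plus 1), thinning to equal depth, a threshold of 0.01, a replicate block, a length and GC correction, and leaving out each library; a correction with the trend of genes with at least 200 counts and a limit on UTR length were added after the data were seen.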

Additional observations from a re-analysis of the deposited data

How the results depend on the processing

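Over 20 alternatives, 6 to 8 members passed the threshold. DICER1, TNRC6A, AGO1, AGO2, TNRC6C and DGCR8 kept their call and direction in every setting run. DROSHA lost it with the DESeq2 Wald test, at a threshold of 0.01, with the planned length and GC correction (-0.07, adjusted p = 0.112, limma) and without control replicate 2. AGO3 gained a call with no filter, with that correction (0.29) and without control replicate 3 or knockdown replicate 2. TNRC6B reversed with it, with or without the replicate block (both 0.071), and without control replicate 3 (0.0033), never past the threshold. Of 190 values of single members, 178 kept direction and call. The planned correction left the trend with length (rank correlation 0.25) and moved the median of all genes to 0.05, so changes under it are relative to that shift. It called 3993 genes higher and 2006 lower, against 2450 and 3144 with the trend of genes averaging 200 counts, 2206 and 3198 by library size alone and 2354 and 3012 with upper-quartile factors. Genes past the threshold ranged from 3604 (DESeq2) to 5999.

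With the replicate block, 7 members passed (5 higher, 2 lower) and 4862 genes in all. Libraries with the same number, each centred on its group mean, correlated at 0.04, -0.01 and -0.10. With so few libraries this cannot exclude a shared culture day. The titles number the libraries as biological replicates, and the labels do not say whether equal numbers belong together across the groups.

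Of the lists, microprocessor partners past the threshold numbered 11 with library size alone, upper-quartile factors or an average of 50 counts, and 4 to 10 without 1 library. Export and dicing genes numbered 7 with the planned correction, with or without the block, and 2 to 4 without 1 library. Deadenylation genes numbered 1 with DESeq2 or a threshold of 0.01, 8 with the planned correction, with or without the block, and 1 to 3 without 1 library. MicroRNA host genes numbered 10 with the added correction. The difference in AGO1 share ranged from -0.93 to 1.04 percentage points without 1 library. The cause of these changes was not tested.

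For the site groups, after length and GC correction differences were 0.057 (miR-17-5p), 0.038 (miR-18a-5p), 0.036 (miR-25-3p), 0.024 (miR-15a-5p), 0.013 (miR-30a-5p), 0.012 (miR-19a-3p), 0.011 (miR-29a-3p), 0.0084 (miR-23a-3p), 0.0052 (miR-182-5p), 0.0049 (miR-141-3p) and 0.00069 (miR-27a-3p), still above 0. They were at or below 0 for miR-96-5p (-0.0043), miR-21-5p (-0.0044), miR-26a-5p (-0.0050), miR-203a-3p (-0.0051), miR-31-5p (-0.0073), miR-103a-3p (-0.0085), miR-200b-3p (-0.011), miR-24-3p (-0.012), miR-192-5p (-0.013), miR-194-5p (-0.017), let-7a-5p (-0.029) and miR-34a-5p (-0.032). In UTRs of 2000 to 5000 nt the differences that moved beyond their SD were 0.065 (miR-17-5p), 0.057 (miR-192-5p), 0.024 (miR-182-5p), 0.010 (miR-30a-5p), 0.0034 (miR-96-5p), 0.0030 (miR-203a-3p) and 0.0022 (miR-141-3p), and those below 0 were -0.00042 (miR-31-5p), -0.0061 (miR-26a-5p), -0.0068 (miR-103a-3p), -0.019 (miR-194-5p), -0.023 (miR-34a-5p) and -0.036 (let-7a-5p). Depth limits AGO4 most, the member with the fewest reads.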
